A study of Homo sapiens with 6 samples.

Results

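The RNAs described here are 10 long noncoding RNAs that carry small nucleolar RNAs in their introns, *SNHG1*, *SNHG3*, *SNHG5*, *SNHG6*, *SNHG7*, *SNHG8*, *SNHG12*, *SNHG16*, *GAS5* and *ZFAS1*. They were chosen by name as relatives of *SNHG15*, the host RNA that the study depleted, and all 10 were found among the 63677 genes of the deposited counts. RNA was sequenced from an established human colorectal cancer cell line, labelled LoVo, in 3 libraries per condition. In one condition the cells were transfected with a mixture of both *SNHG15* siRNAs, and in the other with a negative control siRNA, called scramble. Cells of both conditions received siRNA at 25 nM by lipofection and were harvested at 48 h, so that transfection itself is shared by every library, and no cells without siRNA are analysed here. The comparison asks whether the other host RNAs follow *SNHG15* down, move against it or keep their level.

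A snoRNA host gene is transcribed as one precursor. Splicing joins its exons into the host RNA, while the released introns are trimmed to snoRNAs, which assemble with proteins into snoRNPs and guide the chemical modification of ribosomal RNA. Box C/D snoRNAs guide 2′-O-methylation with fibrillarin, and box H/ACA snoRNAs guide pseudouridylation with dyskerin. Many spliced host RNAs are translated poorly and are removed by nonsense-mediated decay (NMD), and several belong to the 5′TOP class, whose transcripts begin with a C followed by a run of pyrimidines, as those of ribosomal protein genes do.

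Libraries held 3446922 to 10256710 counted reads, the fewest in scramble replicate 3, and 12507 genes passed the filter on low counts. *SNHG15* siRNA replicate 1 stood apart from the other siRNA libraries on the first principal component, which held 46.0% of the variance. The label was checked against 10 markers of colon epithelium. Of these, 6 had at most 15 counts over all 6 libraries together, with *KRT20*, *CDX1* and *VIL1* at 0, *CEACAM5* at 1, *EPCAM* at 2 and *LGALS4* at 13, which goes against the label as the counts stand, while *KRT8*, *KRT18*, *CDH1* and *CDX2* were read in every library. The colon markers summed to 102 to 110 counts per 1000000 counted reads (CPM) in scramble and 106 to 117 CPM in siRNA libraries. In scramble, the mean was 46.4 CPM for *KRT8*, 27.9 CPM for *CDX2*, 23.9 CPM for *KRT18* and 7.52 CPM for *CDH1*. Of 7 stromal or immune markers, 6 had at most 15 counts, with *DCN* and *LUM* at 0, and they summed to 0.234 to 0.605 CPM against 0.719 to 1.52 CPM. Their part in the results below was not tested. Rows at or near 0 also occur where a gene should be read, with *RBM8A*, a core gene of the exon junction complex, at 0 in every library. Rows were found by the identifiers of GENCODE release 44, while the annotation release of the counts is not given. Reads of *RBM8A* may thus have been counted under another identifier. A cell line other than the label says, incomplete rows of the count table and reads under another identifier cannot be told apart. The cells are therefore called the cells labelled LoVo below.

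The RefSeq annotation of GRCh38.p14 places 38 snoRNA genes within the 10 host genes, 28 of box C/D and 9 of box H/ACA. *GAS5* holds 11 and *SNHG1* holds 9, whereas *SNHG6* (*SNORD87*) and *SNHG8* (*SNORA24*) hold 1 each. *SNHG5* carries *SNORD50A* and *SNORD50B*, *SNHG16* carries 3 *SNORD1* genes, and *ZFAS1* carries 3 *SNORD12* genes. Only H/ACA genes lie in *SNHG3* (*SNORA73A* and *SNORA73B*), *SNHG7* (*SNORA17A* and *SNORA17B*) and *SNHG8*, as in *SNHG15* itself (*SNORA9*), and *SNHG12* holds 3 H/ACA genes and *SNORD99*.

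The start of the host genes is shown for 6 of the 10, picked with their changes known. They are *SNHG5* and *SNHG8*, called lower, *SNHG7* and *SNHG12*, lower in every siRNA library without passing the test, and *ZFAS1* and *SNHG3*, which were not lower. Whether a start goes with a change was not tested. Each sequence runs 5′ to 3′ from 40 bases before the RefSeq start (GRCh38.p14) to 20 bases of the transcript, and capitals mark the letters TATAA before the start and, at the start, a C followed by at least 3 more C or T.
SNHG5 (chr6:85678714-85678773, minus strand): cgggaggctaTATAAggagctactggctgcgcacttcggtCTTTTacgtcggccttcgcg
SNHG8 (chr4:118278722-118278781, plus strand): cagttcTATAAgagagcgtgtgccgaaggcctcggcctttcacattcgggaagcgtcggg
SNHG7 (chr9:136728165-136728224, minus strand): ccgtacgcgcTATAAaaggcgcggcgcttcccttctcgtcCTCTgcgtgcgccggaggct
SNHG12 (chr1:28581854-28581913, minus strand): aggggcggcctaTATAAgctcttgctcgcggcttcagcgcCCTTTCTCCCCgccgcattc
ZFAS1 (chr20:49278602-49278661, plus strand): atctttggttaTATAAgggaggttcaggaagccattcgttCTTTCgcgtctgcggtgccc
SNHG3 (chr1:28505903-28505962, plus strand): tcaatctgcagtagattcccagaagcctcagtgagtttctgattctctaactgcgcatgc

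Of the 9 hosts with an entry, 5 had TATAA on the transcribed strand within the 40 bases before the start, against 4.67% of 27305 RefSeq promoters, with its first base 28 to 34 bases before the start. A C at base 1 with at least 4 C or T in a row began 4 of them, *SNHG5*, *SNHG7*, *SNHG12* and *ZFAS1*, against 5.45% of promoters. The E-box CACGTG, the same on both strands and the motif that MYC and MAX bind, lay in 1 of the 9 windows of 300 bases, in *SNHG7*, against 7.43% of promoters. The windows of *SNHG1*, *SNHG3*, *SNHG16* and *GAS5* held no TATAA before the start. These letters were chosen after the changes were known and describe the annotated starts only. Only the first entry of each gene was read, and other starts of a host were not examined.

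*SNHG15* (ENSG00000232956, chromosome 7, 45022618 to 45026560 on GRCh37, minus strand) was read at 290, 277 and 261 CPM in scramble replicates 1 to 3 and at 77.2, 83.1 and 87.2 CPM in siRNA replicates 1 to 3. The 2 conditions lay far apart, and 29.9% of the scramble level remained. The log2 fold change, siRNA over scramble, was -1.74 (standard error (SE) 0.12, 95% interval -2.0 to -1.48), and edgeR's quasi-likelihood test gave a p, adjusted by Benjamini-Hochberg over every gene tested, of 2.62e-05. It had the smallest p of all 12507 genes and passed the threshold with any 1 library left out. In a bulk culture, less RNA in each cell and fewer cells that hold it cannot be told apart, here and for each RNA below.

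All 10 other host RNAs passed the filter. The test called 2 of them lower, *SNHG5* and *SNHG8*, and 0 higher. Among all genes tested, 5.36% were called, 2.23% lower and 3.13% higher, so that 58.4% of the calls were higher, a split that upper-quartile factors moved to 69.1%. Of the 10, 8 had a log2 fold change below 0, and their median was -0.26, against 0.00 over all genes. Without siRNA replicate 1 the test called 3 of the 10 lower, without siRNA replicate 3 it called 1, and without siRNA replicate 2 or any 1 scramble library it called 0. In 5 of them the highest siRNA library was lower than the lowest scramble library, and in 1, *SNHG3*, all siRNA libraries were higher. Conditions did not overlap in 28.8% of all genes tested, in 14.1% with the siRNA libraries lower and in 14.7% with them higher. No interval among the 10 reached that of *SNHG15*, since the lowest bound was -0.80 and the highest bound was 0.64, a 1.56-fold higher level.

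**Figure D1:**
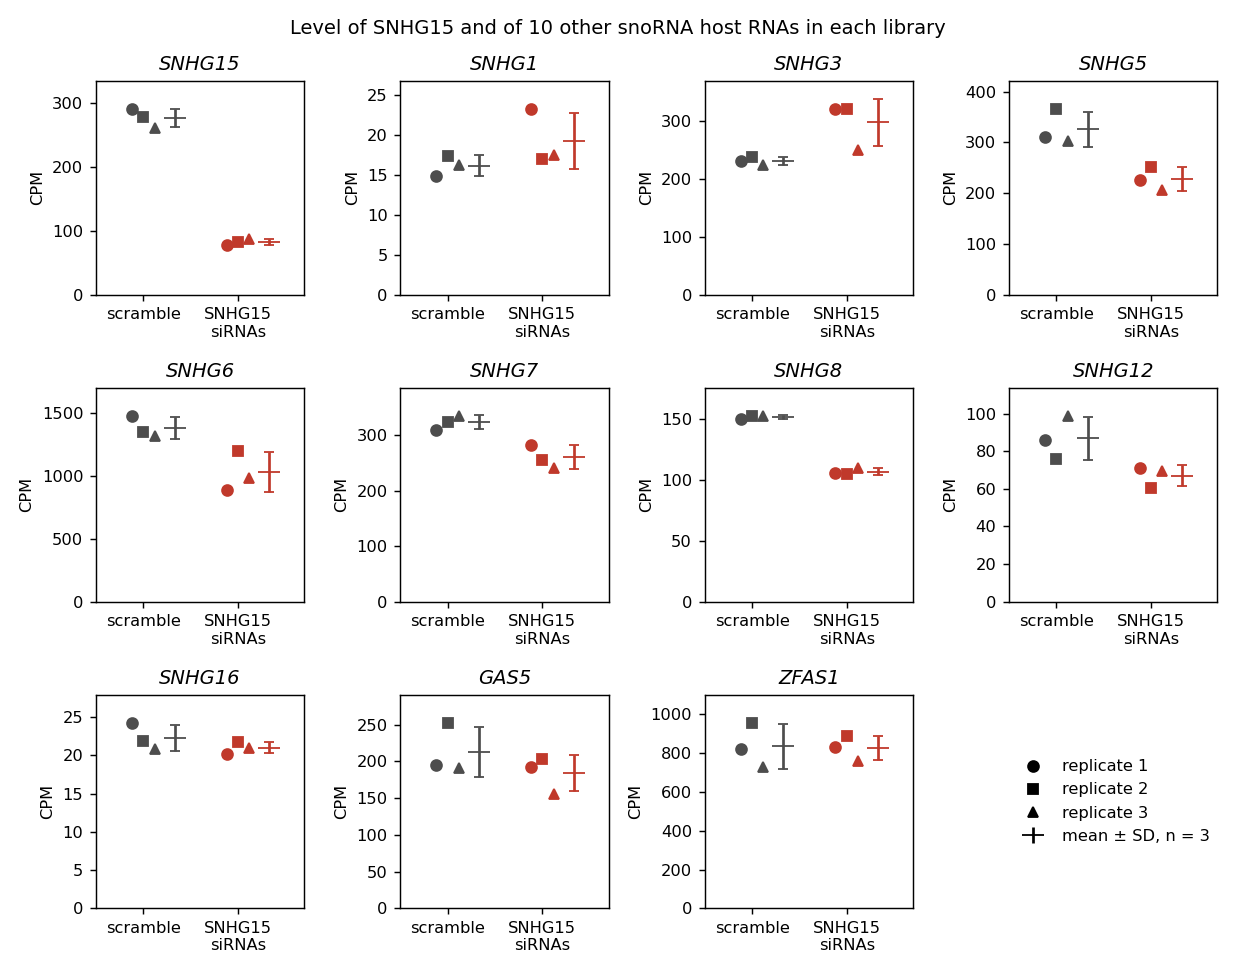
Level in CPM (vertical axis, from 0, with its own range in each panel) of *SNHG15* and the 10 other host RNAs in the 3 scramble (grey) and 3 *SNHG15* siRNA libraries (red), with the mean ± SD beside them. *SNHG15* lies at 77.2 to 87.2 CPM in the siRNA libraries, *SNHG5* and *SNHG8* lie lower there without overlap, *SNHG3* lies higher, and *ZFAS1*, *GAS5*, *SNHG16* and *SNHG1* overlap.

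*SNHG5* (ENSG00000203875, chromosome 6, 86360209 to 86388650 on GRCh37, minus strand), host of the *SNORD50* pair, was read at 310, 366 and 303 CPM in scramble and at 227, 252 and 206 CPM in siRNA libraries. All 3 siRNA libraries lay below the lowest scramble library, and 69.9% of the level remained (326 ± 34.7 against 228 ± 23.2 CPM, SD, n = 3). The log2 fold change was -0.52 (SE 0.13, 95% interval -0.80 to -0.24, adjusted p 0.0372, edgeR's quasi-likelihood test). The call was lost without any 1 of the 3 scramble libraries, without siRNA replicate 2 or without siRNA replicate 3, at an adjusted p of 0.0636 to 0.171 in the edgeR test. The log2 fold change stayed between -0.59 and -0.42. It held without siRNA replicate 1, at 0.0284 in the same edgeR test.

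*SNHG8* (ENSG00000269893, chromosome 4, 119199858 to 119206471, plus strand), host of *SNORA24*, was read at 150, 153 and 153 CPM in scramble and at 106, 105 and 110 CPM in siRNA libraries. Both conditions were tight and did not overlap, and 70.5% of the level remained (152 ± 1.78 against 107 ± 2.76 CPM, SD, n = 3). Replicates lay closer together than counting error alone, 4.44% for the lowest count of 507, would have placed them. Its log2 fold change was -0.50 (SE 0.11, 95% interval -0.75 to -0.26, adjusted p 0.0221, edgeR's quasi-likelihood test). The call was lost without any 1 scramble library or without siRNA replicate 2, at an adjusted p of 0.0751 to 0.0982 in the edgeR test. The log2 fold change there was -0.52 to -0.49. *PRSS12*, a protease gene on the other strand that overlaps it, had a log2 fold change of -0.15 (SE 0.19, adjusted p 0.680 in the edgeR test).

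*SNHG6*, *SNHG7* and *SNHG12* lay lower in every siRNA library but did not pass the threshold. *SNHG6* (ENSG00000245910, chromosome 8, 67832796 to 67838633, minus strand), host of *SNORD87*, was read at 1480, 1350 and 1320 CPM in scramble and at 891, 1200 and 986 CPM in siRNA libraries. The siRNA libraries differed more among themselves than the scramble libraries did (SD 160 against 87.2 CPM, n = 3), with replicate 1 lowest, and without it the fold change was -0.34. Its log2 fold change was -0.43 (SE 0.13, 95% interval -0.71 to -0.14, adjusted p 0.0761, edgeR's quasi-likelihood test). DESeq2 gave an adjusted p of 0.0338, and edgeR without the filter on low counts gave 0.0127, both past the threshold.

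*SNHG7* (ENSG00000233016, chromosome 9, 139615818 to 139622636, minus strand), host of the *SNORA17* pair, was read at 310, 323 and 335 CPM in scramble and at 283, 255 and 240 CPM in siRNA libraries. The nearest libraries of the 2 conditions were 310 and 283 CPM, both replicate 1. The log2 fold change was -0.31 (SE 0.12, 95% interval -0.57 to -0.06, adjusted p 0.139, edgeR's quasi-likelihood test), and without siRNA replicate 1 it was -0.38 with an adjusted p of 0.049.

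*SNHG12* (ENSG00000197989, chromosome 1, 28905050 to 28909644, minus strand), host of *SNORA16A*, *SNORA44*, *SNORA61* and *SNORD99*, was read at 85.8, 76 and 98.9 CPM in scramble and at 71.0, 60.6 and 69.3 CPM in siRNA libraries. The gap between the lowest scramble and the highest siRNA library was smaller than the SD of the scramble libraries, 11.5 CPM. Its log2 fold change was -0.37 (SE 0.14, 95% interval -0.66 to -0.07, adjusted p 0.132, edgeR's quasi-likelihood test).

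*SNHG3* (ENSG00000242125, chromosome 1, 28832492 to 28837404, plus strand), host of *SNORA73A* and *SNORA73B*, the U17 snoRNAs that act in the processing of 18S ribosomal RNA, had the highest fold change of the 10. It was read at 231, 238 and 224 CPM in scramble and at 320, 320 and 250 CPM in siRNA libraries. All 3 siRNA libraries lay above the scramble libraries, with replicate 3 close to them. Its log2 fold change was 0.36 (SE 0.13, 95% interval 0.08 to 0.64, adjusted p 0.122, edgeR's quasi-likelihood test), and it did not pass the threshold in any of 12 other fits (0.30 to 0.48).

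*RCC1*, the chromatin-bound exchange factor for the GTPase Ran, starts 37 bases from *SNHG3* on the same strand and spans it. It was read at 277, 280 and 259 CPM in scramble and at 128, 150 and 132 CPM in siRNA libraries, and it fell by 0.99 on the log2 scale (SE 0.12, adjusted p 0.00177, edgeR's quasi-likelihood test), a call that held with any 1 library left out. The 2 genes share 242 bases of annotated exon, 5.92% of the merged exons of *SNHG3*. In the siRNA libraries, *RCC1* was thus lower and *SNHG3* read at a higher level, although only *RCC1* passed the threshold.

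*SNHG1* (ENSG00000255717, chromosome 11, 62619450 to 62623425, minus strand), host of *SNORD22* and of *SNORD25* to *SNORD31*, was read at 14.9, 17.4 and 16.3 CPM in scramble and at 23.3, 17 and 17.5 CPM in siRNA libraries. The conditions overlapped, with siRNA replicate 1 above the other 5 libraries, and without it the fold change was 0.09. It rested on 791 reads in all and on 54 in scramble replicate 3, a counting error of 13.6% there. Its log2 fold change was 0.25 (SE 0.17, 95% interval -0.12 to 0.62, adjusted p 0.420, edgeR's quasi-likelihood test). *SLC3A2*, the heavy chain of amino acid transporters, starts 51 bases away on the other strand. It had a log2 fold change of -0.06 (SE 0.22, adjusted p 0.891 in the edgeR test).

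*GAS5* (ENSG00000234741, chromosome 1, 173827697 to 173838020, minus strand), first found as an RNA that accumulates in growth-arrested cells, was read at 195, 253 and 191 CPM in scramble and at 192, 203 and 156 CPM in siRNA libraries. The conditions overlapped, and replicate 2 was the highest of each. The log2 fold change was -0.21 (SE 0.15, 95% interval -0.53 to 0.10, adjusted p 0.418, edgeR's quasi-likelihood test). *ZBTB37*, which overlaps *GAS5* on the other strand, had a log2 fold change of -0.09 (adjusted p 0.843 in the edgeR test). *GAS5-AS1* had 17 reads in all and was not tested.

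*ZFAS1* (ENSG00000177410, chromosome 20, 47894715 to 47916137, plus strand), host of the *SNORD12* genes, was read at 822, 958 and 727 CPM in scramble and at 830, 887 and 761 CPM in siRNA libraries. Every siRNA library lay within the range of the scramble libraries. Its log2 fold change was -0.02 (SE 0.13, 95% interval -0.30 to 0.26, adjusted p 0.955, edgeR's quasi-likelihood test), and its sign turned with upper-quartile factors (0.02) and with a filter of 10 counts in every library (0.01). *ZNFX1*, a helicase gene whose 5′ end *ZFAS1* overlaps on the other strand, was read at 45.8, 61.1 and 43.2 CPM in scramble and at 84.8, 70.8 and 69.1 CPM in siRNA libraries. Its log2 fold change was 0.57 (SE 0.16, adjusted p 0.0529, edgeR's quasi-likelihood test), and DESeq2 put it past the threshold (0.0308).

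*SNHG16* (ENSG00000163597, chromosome 17, 74553809 to 74667067, plus strand), host of the *SNORD1* genes, was read at 24.3, 21.9 and 20.9 CPM in scramble and at 20.2, 21.7 and 21.0 CPM in siRNA libraries. The conditions overlapped, and the log2 fold change was -0.10 (SE 0.14, 95% interval -0.41 to 0.21, adjusted p 0.730, edgeR's quasi-likelihood test). It rested on 972 reads in all, with a counting error of 12% in its lowest library.

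**Figure D2:**
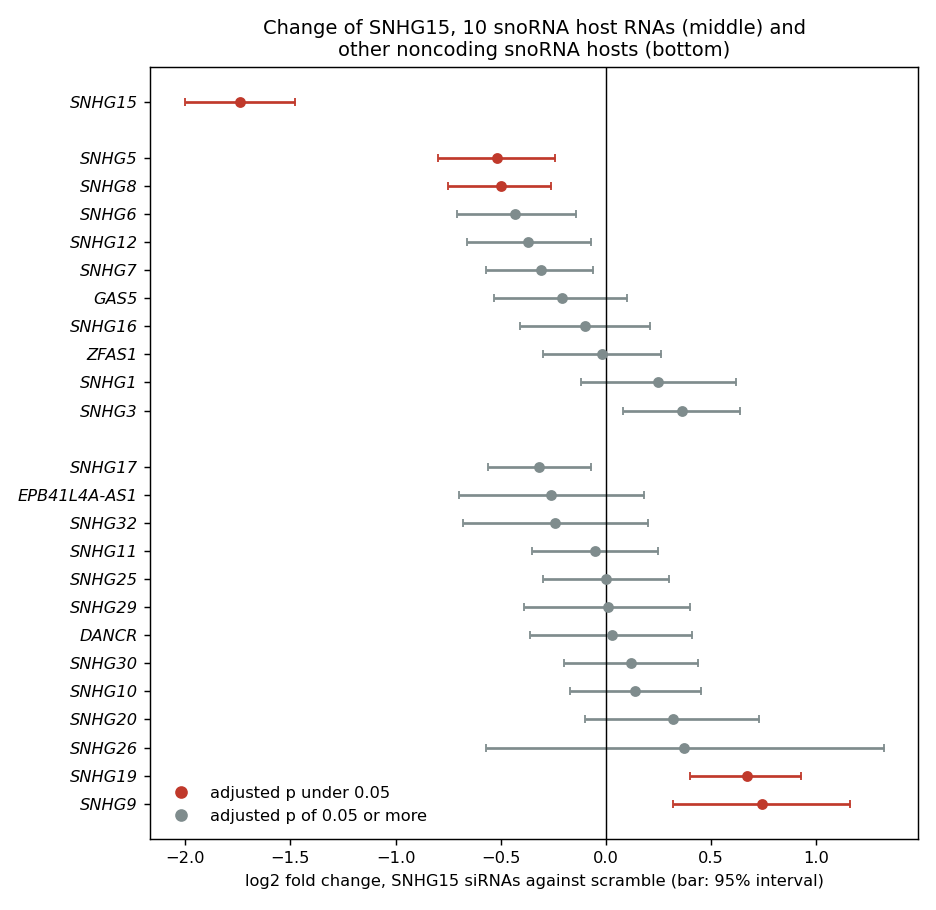
Log2 fold change, *SNHG15* siRNA over scramble (horizontal axis), with its 95% interval, for *SNHG15* (top), the 10 host RNAs (middle) and 13 other noncoding hosts (bottom), red where the adjusted p was under 0.05. *SNHG15* lies alone at -1.74, *SNHG5* and *SNHG8* at -0.52 and -0.50, and *SNHG19* and *SNHG9* at 0.67 and 0.74.

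The hosts can be set out by the letters at their starts and by the class of their snoRNAs. The 5 with TATAA before the start had log2 fold changes of -0.52 to -0.02, and the 4 without it -0.21 to 0.36, which overlap. Hosts of H/ACA genes alone lay on both sides, *SNHG8* at -0.50 and *SNHG7* at -0.31 but *SNHG3* at 0.36. Hosts of box C/D genes alone also differed, from -0.52 for *SNHG5* and -0.43 for *SNHG6* to -0.10 for *SNHG16* and -0.02 for *ZFAS1*. *SNHG1*, with 8 box C/D genes and 1 snoRNA gene of unnamed class, lay at 0.25. *SNHG12* and *GAS5*, which hold both classes, lay at -0.37 and -0.21. The grouping was made after the values were seen and carries no test.

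Ratios of reads within a library do not depend on how libraries are scaled. The ratio of *SNHG3* to *SNHG5* reads was 0.746, 0.649 and 0.739 in scramble and 1.41, 1.27 and 1.22 in siRNA libraries, so that the order of their read counts was reversed in all 3. The *SNHG3* to *SNHG12* ratio was 2.69, 3.13 and 2.26 against 4.51, 5.29 and 3.61, and the *SNHG6* to *ZFAS1* ratio was 1.80, 1.41 and 1.81 against 1.07, 1.36 and 1.29. Each pair of conditions was apart, though the last by little, and the pairs were picked for their difference. Set against *SNHG15*, the *SNHG8* ratio was 0.553 ± 0.0344 in scramble and 1.30 ± 0.0642 in siRNA libraries (SD, n = 3). Since *SNHG15* fell further than *SNHG8*, this ratio had to rise. All these ratios are descriptions with no test.

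The 10 RNAs summed to 3390 to 3750 CPM in scramble and 2820 to 3330 CPM in siRNA libraries. *SNHG6* gave 38.6% ± 2.5 of their reads in scramble and 33.7% ± 3.24 in siRNA libraries, and *ZFAS1* gave 23.2% ± 2.08 and 27.2% ± 0.686 (SD, n = 3). The share of *SNHG3* was 6.44% ± 0.147 against 9.77% ± 0.971, and all 3 siRNA libraries lay above the scramble libraries. *SNHG8* gave 4.25% ± 0.244 and 3.56% ± 0.380, and *SNHG5* gave 9.08% ± 0.615 and 7.5% ± 0.185.

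Levels between genes were compared per kilobase of the canonical transcript's exons, in the scramble libraries. *SNHG6* was the highest at 759 ± 47.9 CPM per kb (SD, n = 3). *GAS5* (277 ± 44.8) and *SNHG5* (248 ± 26.4) followed and did not differ beyond their spread, and *ZFAS1* (185 ± 25.7), *SNHG7* (137 ± 5.26) and *SNHG3* (105 ± 3.21) came next. *SNHG15* lay at 92.0 ± 4.76, just below *SNHG3*. *SNHG12* (46.4 ± 6.14) and *SNHG16* (44.8 ± 3.49) overlapped, and *SNHG8* (24.7 ± 0.289) and *SNHG1* (13.9 ± 1.09) were the lowest. The order depends on the exons counted. Per kilobase of all annotated exons merged, *SNHG6* was again first at 547 CPM per kb, but *ZFAS1* came second at 100 and *GAS5* and *SNHG5* dropped to 43.2 and 25.9.

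Some exons are shared with other genes in the annotation. On either strand, 58.9% of the merged exon bases of *SNHG6*, 38.6% of *ZFAS1*, 37.6% of *SNHG8*, 30.3% of *SNHG7* and 28.5% of *SNHG16* lie within exons of another gene, and on the same strand 13.2% of *SNHG5* do. *SNHG15* and *SNHG1* share none. The libraries kept strand, but whether the counting used it is not given in the sources used here, so reads of these hosts and of their overlapping partners may not be told apart. For 4 of these hosts, the gene that shares most with it had few reads in all, with 74 for *MCMDC2* (*SNHG6*), 499 for *PRSS12* (*SNHG8*), 5 for *DIPK1B* (*SNHG7*) and 0 for the gene that shares most with *SNHG5*. The partner of *SNHG16* was not among the counted genes. *MCMDC2* had a log2 fold change of -0.20 (SE 0.41, adjusted p 0.807, edgeR's quasi-likelihood test). *TRNAU1AP* meets *SNHG12* end to end over 8 bases (-0.14, SE 0.13, adjusted p 0.589), and *ST6GALNAC2*, within the span of *SNHG16*, had 21 reads in all and was not tested.

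Of the 38 snoRNA genes of the RefSeq annotation, 31 were not examined, because the annotation on GRCh37 that was joined to the counts did not list them inside these hosts. Libraries were made from polyadenylated RNA, and mature snoRNAs have no poly(A) tail. Of the other 7, on the same strand as their hosts, 4 had any read, 62 reads over all libraries, and 0 passed the filter. *SNORD78* and *SNORD12* lie wholly inside annotated exons of *GAS5* and *ZFAS1* and had 0 reads. *SNORD99*, in *SNHG12*, gave most of them, with 10, 14 and 4 reads in scramble and 5, 5 and 9 in siRNA libraries. *SNORA73B*, in *SNHG3*, gave 12. With so few reads from libraries of this kind, a change of these 7 could not be measured.

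**Figure D3:**
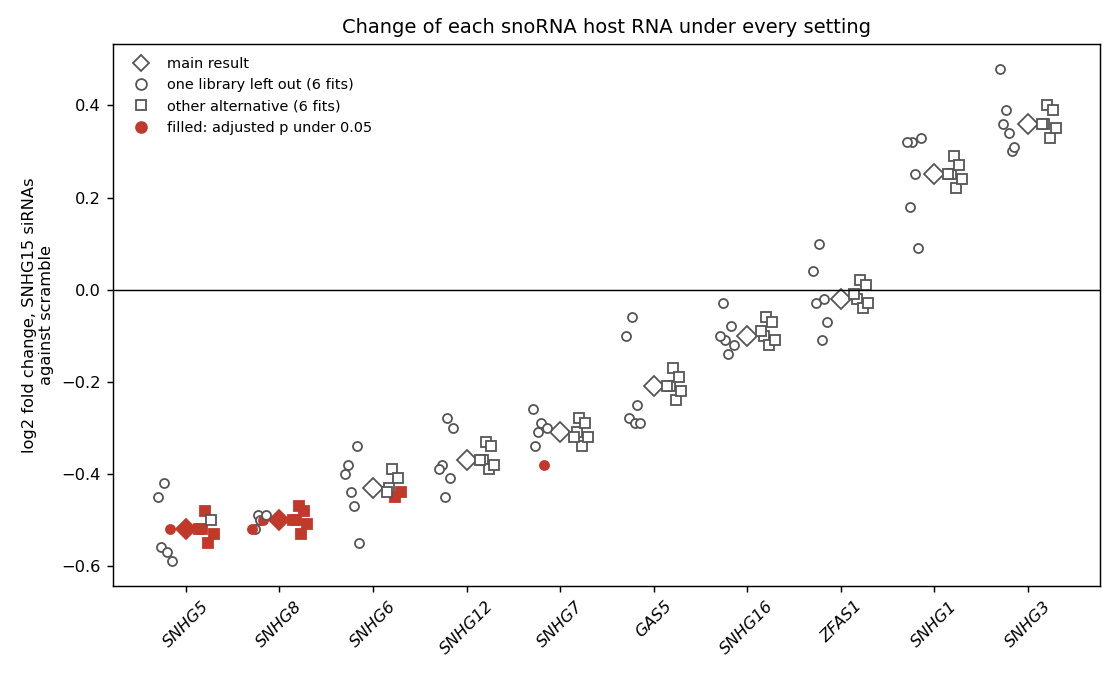
Log2 fold change of each of the 10 host RNAs (vertical axis) in the reported fit (diamond), with each of 6 libraries left out (circles) and under 6 other settings (squares), filled red where the adjusted p was under 0.05. Only *ZFAS1* crosses 0, *SNHG5* and *SNHG8* keep their size while losing the call in most fits with a library left out, and *SNHG6* passes under 2 other settings.

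Other noncoding snoRNA hosts were taken from a list of 20, of which 19 were matched and 13 tested. None was called lower and 2 were called higher, both short genes on chromosome 16, where 2.23% of all genes were called lower and 3.13% higher. *SNHG19*, host of *SNORD60*, was read at 108, 89.8 and 97.1 CPM in scramble and at 159, 163 and 147 CPM in siRNA libraries, and rose by 0.67 on the log2 scale (SE 0.12, 95% interval 0.40 to 0.93, adjusted p 0.00911, edgeR's quasi-likelihood test), losing the call only without scramble replicate 2 (0.0668). *SNHG9*, host of *SNORA78*, was read at 75.3, 81.1 and 84.4 CPM against 187, 104 and 110 CPM, and rose by 0.74 (SE 0.19, adjusted p 0.0456). The siRNA libraries of *SNHG9* were led by replicate 1. Its call was lost without any 1 scramble library (0.115 to 0.157). Without siRNA replicate 1 the log2 fold change was smaller, at 0.42, but past the threshold at an adjusted p of 0.0379 in the edgeR test.

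The median of the 13 was 0.03, with a range of -0.32 to 0.74. By mean CPM over the 6 libraries, the 4 most abundant were *SNHG32*, *SNHG17*, *EPB41L4A-AS1* and *DANCR*. *SNHG17*, host of *SNORA71* genes, lay lower in every siRNA library, at 480, 485 and 458 CPM against 382, 366 and 396 CPM, with a log2 fold change of -0.32 (SE 0.11, adjusted p 0.121, edgeR's quasi-likelihood test). *SNHG32* (-0.24, adjusted p 0.520), *EPB41L4A-AS1* (-0.26, adjusted p 0.477) and *DANCR* (0.03, adjusted p 0.951) overlapped between conditions. Against the 10 hosts described first, of which 8 lay below 0, 9 of these 13 had a log2 fold change at or above 0. This difference between chosen lists carries no test.

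Ribosomal protein genes that hold snoRNAs are the best known 5′TOP genes. Of 25 tested, 3 fell and 0 rose, where 2.23% of all genes tested fell and 3.13% rose. Of the 25, 21 lay below 0, against 49.9% of all genes, and their median was -0.12. *RPL4* was read at 2970 ± 223 CPM in scramble and 1920 ± 152 CPM in siRNA libraries (SD, n = 3) and fell by 0.64 on the log2 scale (SE 0.12, adjusted p 0.00911, edgeR's quasi-likelihood test). *RPL5*, which binds 5S ribosomal RNA and MDM2, fell by 0.57 (SE 0.11, adjusted p 0.0137), and *RPS12* fell by 0.44 (SE 0.11, adjusted p 0.0413). The calls were lost without scramble replicate 2 or 3 for *RPL4* (0.0501 to 0.0568), without any 1 scramble library or siRNA replicate 2 for *RPL5* (0.0563 to 0.0739), and without any 1 library but siRNA replicate 1 for *RPS12* (0.0715 to 0.147). Ribosomal protein genes have many processed pseudogenes, so their counts carry an uncertainty that the replicates do not show.

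Of 33 other protein-coding hosts tested, 3 rose and 1 fell, against 3.13% and 2.23% of all genes, with a median of -0.11. *EIF3A*, the largest subunit of initiation factor eIF3, was read at 98.9 ± 12.2 CPM against 193 ± 43.0 CPM (SD, n = 3) and rose by 0.96 on the log2 scale (SE 0.16, adjusted p 0.00677, edgeR's quasi-likelihood test). *EIF4A1* (1.45 ± 0.279 against 6.40 ± 2.38 CPM, 2.08, adjusted p 0.00569) and *DDX39B* (3.82 ± 0.528 against 9.69 ± 3.99 CPM, 1.30, adjusted p 0.0227), both RNA helicases, also rose, from 177 and 305 reads in all. A noncoding gene on the same strand, with 18 reads in all, shares 42.1% of the merged exon bases of *EIF4A1*. An annotated readthrough gene shares 28.2% of them but was not among the counted genes. Another readthrough gene, counted with 0 reads, shares 29.7% of those of *DDX39B*. How reads in shared exons were counted is not given in the sources used here, so that both counts are uncertain. *SNX5*, a sorting nexin, fell by 0.46 (SE 0.12, adjusted p 0.0380). The calls of *EIF3A* and *EIF4A1* held with any 1 library left out, that of *DDX39B* was lost without any 1 scramble library (0.0760 to 0.0989), and that of *SNX5* without any 1 library but siRNA replicate 1 (0.0538 to 0.147). *EIF4A1* had 15, 14 and 4 reads in scramble replicates 1 to 3, and 66, 34 and 44 in siRNA replicates 1 to 3. The 4 reads carry a counting error of 50%, and the gene was not tested with 10 counts in every library. Its fold change thus rests on few scramble reads.

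**Figure D4:**
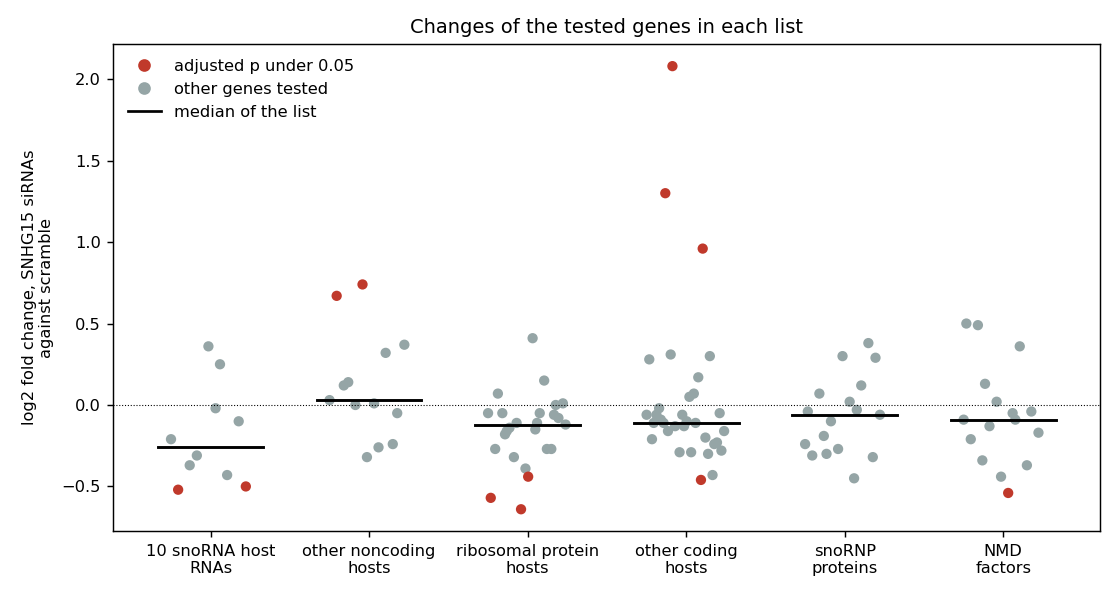
Log2 fold changes (vertical axis, *SNHG15* siRNA over scramble) of the tested genes of 6 lists, 1 point per gene, red where the adjusted p was under 0.05, with a bar at the list's median. The median is -0.26 for the 10 host RNAs, 0.03 for other noncoding hosts and -0.12 for ribosomal protein hosts.

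Proteins that bind snoRNAs or assemble snoRNPs were tested for 17 of 18 listed genes. None was called by edgeR's quasi-likelihood test, 5 had an unadjusted p under 0.05, of which 4 were lower, against 22.5% of all genes tested, and DESeq2 called 1. Fibrillarin (*FBL*), the methyltransferase of box C/D snoRNPs, was read at 424, 448 and 528 CPM in scramble and at 360, 327 and 340 CPM in siRNA libraries, with a log2 fold change of -0.45 (SE 0.13, adjusted p 0.0563, edgeR's quasi-likelihood test). It is the gene that DESeq2 called (0.0165). *NOLC1*, a nucleolar chaperone of snoRNPs, lay at -0.31 (adjusted p 0.137), and the median was -0.06.

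Of 16 NMD and exon junction factors tested, which act on spliced RNAs of the kind that hosts give, 1 was called by edgeR's quasi-likelihood test, against 5.36% of all genes. The call was lower, as were 2.23% of all genes. The median of the 16 was -0.09, and 11 lay below 0, against 49.9% of all genes. The conditions overlapped in 10. They did not overlap in 18.8% with the siRNA libraries lower and in 18.8% with them higher, against 14.1% and 14.7% of all genes tested.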

How the data were processed

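RNA sequencing reads had been counted per Ensembl gene, and the authors deposited raw counts, without normalization, for 6 libraries. Per the labels, libraries came from a stranded mRNA kit, reads were placed on hg19, and STAR and featureCounts were used, while the study's methods name bowtie2. Versions, annotation release, use of strand and treatment of multiply placed reads are not given in the sources used here. The methods call the 3 libraries of a condition biological replicates, and conditions were taken from the sample titles.

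The raw counts were taken into edgeR 4.0.16 (R 4.3.3), where filterByExpr removed genes with few reads (minimum count 10, minimum total 15). Libraries were scaled with TMM factors, and the quasi-likelihood test was run on all 12507 genes kept, of 23675 with counts. Changes were called at a Benjamini-Hochberg adjusted p under 0.05. CPM are counts per 1000000 reads in tested genes, scaled by TMM. Standard errors are the size of the log2 fold change divided by the root of its F, and 95% intervals from the t quantile of the fit. Counting errors cover the drawing of reads only. Replicate libraries differed by more than sampling noise (chi-square per degree of freedom 4.20 to 20.5), so none was taken as a repeat sequencing of another library. This check cannot show that they came from separate cultures. The steps were tested on simulated data.

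Names and GRCh37 positions came from GENCODE release 44, and promoter windows and snoRNA names from RefSeq on GRCh38.p14, which was not mixed with the count positions. *SNHG15* and *SNHG6* had no promoter entry. The host RNAs and all gene lists were chosen with earlier results of these data known. Named genes were *SNHG15*, the 10 hosts, other noncoding hosts that were called or among the 4 most abundant, up to 4 called genes of each other list (or the 2 with the smallest p), and genes that overlap a host or start within 1000 bases of it on the other strand. Alternatives were RLE and upper-quartile factors, no filter on low counts, 10 counts in every library, DESeq2 1.42.0, the replicate number as a block, and leaving out each library. Some genes that this rule names are not reported here. No sets were tested.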

Additional observations from a re-analysis of the deposited data

How the results depend on the processing

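With 3 libraries per condition, p-values rest on the spread between these libraries. In edgeR each gene's spread is moderated toward a trend over all genes tested, so p is not set by that gene's own replicates alone. The shallowest library, scramble replicate 3, limits the RNAs with few reads, *SNHG1* and *SNHG16*. The number of genes called in all went from 671 to 1312 without the filter on low counts, and lay between 139 and 812 with 1 library left out. Of the 10 hosts, 2 were called with RLE factors, with upper-quartile factors and with the block, 3 with DESeq2 and without the filter, and 1 with 10 counts in every library, where *SNHG5* had an adjusted p of 0.0502 in the edgeR test. Leaving out 1 library gave 0 to 3. Other noncoding hosts gave 1 call with the replicate block, where *SNHG9* lost its call (adjusted p 0.0760, edgeR), and 0 to 2 with a library left out. Ribosomal protein hosts gave 0 to 4 and other coding hosts 2 to 5 with a library left out. The calls of *RPS12* and *SNX5* were also lost with upper-quartile factors (adjusted p 0.0616 and 0.052, edgeR) and with the replicate block (0.0773 and 0.0673), and that of *RPS12* with 10 counts in every library (0.0516). SnoRNP proteins gave 1 call without the filter and 1 with DESeq2, and 0 to 1 with a library left out. NMD factors gave 0 with upper-quartile factors, 2 without the filter, 0 with 10 counts in every library, 0 with the block, and 0 to 1 with a library left out. The cause of these changes was not tested, except that a fit with a library left out has fewer samples.

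The sign turned for *ZFAS1* with upper-quartile factors (0.02) and with 10 counts in every library (0.01), and its log2 fold change lay between -0.11 and 0.10 with a library left out. It turned for *DANCR* without the filter (-0.00, and -0.21 to 0.16 with a library left out), and, with a library left out, for *SLC3A2* (-0.25 to 0.19), *MCMDC2* (-0.40 to 0.19) and *ZBTB37* (-0.24 to 0.06). Of the values of single genes under these alternatives, 337 kept their direction and side of the threshold, 47 lost the call, 9 gained it and 13 changed sign.

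Replicate numbers occur in both conditions. Deviations from the condition means correlated at -0.0703, 0.155 and -0.0416 for libraries with the same number, which did not show them to be pairs. With the replicate number as a block, edgeR called 543 genes. The calls of *SNHG5* and *SNHG8* held, and those of *SNHG9*, *RPS12*, *SNX5* and the NMD factor were lost.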

Other observations

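Of the listed noncoding hosts, *SNHG14*, *SNHG18* and *MEG8* had 0 reads in all 6 libraries, and *SNHG21*, *SNHG22* and *SNHG28* had 3, 7 and 9 reads in all.

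*RPS24*, a ribosomal protein host, varied more within conditions than between them, at 108, 329 and 158 CPM in scramble and 355, 138 and 58.0 CPM in siRNA libraries (log2 fold change -0.12, SE 0.50).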
